A study of Mus musculus with 12 samples.

Results

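Colon tumors of Apc Min mice without the enhancer ieCtnnb1 were compared with colon tumors of Apc Min mice that keep it. The comparison holds the 6 tumor samples of the 12 samples in the series, and within them the 16743 of 54532 genes with a mean of at least 0.5 fragments per kilobase of gene length, adjusted for depth (FPKM), over the 6 tumor columns. ieCtnnb1 is a stretch of DNA upstream of Ctnnb1, the gene of β-catenin, that acts as an enhancer in the intestine, and the study asked what its loss does to crypts and to tumors driven by Wnt signaling. The Apc Min group held 3 samples (genotype Apc Min/+) and the knockout group 3 samples (the same Apc Min/+ allele with the enhancer deleted on both copies of its chromosome). The labels name the first group wild type, which refers to the enhancer only, since all 6 tumors arose in Apc Min/+ mice. The deletion was made by genome editing and is present in every cell of the mouse, so that fibroblasts, vessels and immune cells lack the enhancer as well as the tumor epithelium. The mice were adult by the labels and 5 months old in the study, were not treated, and gave bulk tumor tissue in which no cell type was sorted. The study reports fewer colon tumors in the knockout mice, so the knockout samples come from the tumors that formed. Whether each sample was 1 tumor or several is not stated in the labels, and the p-values below measure the spread between these samples.

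The lining of the colon is renewed from stem cells at the base of crypts, whose daughters become absorptive colonocytes, mucus-producing goblet cells and a few hormone-secreting or tuft cells. Wnt signaling through β-catenin keeps crypt cells dividing, and loss of APC function, as in Apc Min adenomas, holds it on and leaves few mature cells. An adenoma also contains fibroblasts, smooth muscle cells, blood vessels with their pericytes, and leukocytes, whose genes are read in bulk RNA together with those of the epithelium.

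The sequences below are shown because they lie in the deleted element. They are the predicted binding sites of CREB1 and HNF4A in mouse ieCtnnb1, and the chromatin immunoprecipitation primer of the study that overlaps each, 5′ to 3′. Capitals in a primer mark the bases shared with the site, 8 for CREB1 and 11 of 16 for HNF4A. All were taken from the supplementary files of the study.
CREB1 site in ieCtnnb1: TGACGTCT
CREB1 primer ieCtnnb1-ChIP-3F: cTGACGTCTtgacattcctgttga
HNF4A site in ieCtnnb1: GGGGGCAAAGTCTATC
HNF4A primer ieCtnnb1-ChIP-7F: gcttctttccGGGGGCAAAGT

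Fragments assigned to genes numbered 15895487, 16156712 and 14648696 in the Apc Min samples and 16143130, 16041000 and 16064312 in the knockout samples. The FPKM total over all genes was 305396, 301546 and 293329 in the Apc Min samples. It was larger in the knockout samples, at 317306, 309135 and 346851. Of the 54532 genes, 37789 were under the minimum and 24055 of these were at 0 in all 6 samples. The gene just inside the minimum was Gm3604, with a mean of 0.50009 FPKM, and the gene just outside was Igkv8-18, whose mean of 0.49998 rests on Apc Min replicate 3 (2.37 FPKM). Differences are given as knockout minus Apc Min of log2(FPKM + 0.5), and the added 0.5 makes differences of genes with few fragments look smaller. Of the 130 tested genes named below, 32 share exon bases with another gene, 15 of them with a partner that has a mean of at least 1 FPKM, so that their fragments may belong to either gene. Of these, Anxa2, Car9, Cd74, Cdkn1a, Cebpg, Pdgfra and Prox1 have partners with means between 1.90 and 4.78 FPKM, and the other partners are given with their genes.

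The labelled tissue was checked against its markers. Epithelial keratin and mucosal genes of the colon were high in all 6 samples, with Krt8 at 1446, 1476 and 1280.5 FPKM in the Apc Min samples and 1772, 1760.4 and 1796 FPKM in the knockout samples. Lypd8, a colon-restricted antibacterial protein, at 1587, 1322 and 1376 FPKM in the Apc Min samples and 1727, 2529 and 2257 FPKM in the knockout samples. Sis, which encodes the small intestinal sucrase-isomaltase, was near 0 (highest 0.0430 FPKM). Adipoq of fat cells and Cpa1 of the pancreas were at 0 in all 6 samples.

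Several samples differed in ways that the groups do not explain. Xist, transcribed from the inactive X chromosome, was at 114 FPKM in Apc Min replicate 3 and 61.4 FPKM in knockout replicate 3 and at most 0.0623 FPKM in the other samples, which expressed Y-linked genes, so that each group held 2 male samples and 1 female sample. In a principal component analysis of the tested genes the first component (30.98% of the variance) placed Apc Min replicates 2 and 3 at -34.9 and -33.7 and the other samples at 8.75 (Apc Min replicate 1), 16.6, 31.9 and 11.3 (knockout replicates 1, 2 and 3). Apc Min replicate 1 was thus nearer to the knockout samples than to its own group. The second component (23.2%) set knockout replicate 3 apart, at 44.98, with the other samples between -20.7 and 2.49. Where an alternative moved a list median or a printed log2 difference by over 1.5 times, its value is given where the list or gene is described.

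Ctnnb1 (ENSMUSG00000006932; GRCm38 chromosome 9, 120929216 to 120960507, plus strand), the gene that the deleted enhancer acts on, had 299, 363 and 358 FPKM in the Apc Min samples and 279, 248 and 250.2 FPKM in the knockout samples. All 3 knockout samples lay below all 3 Apc Min samples, with knockout replicate 1 and Apc Min replicate 1 closest to each other. The log2 difference was -0.39 (standard error 0.128, unadjusted p = 0.0204 and adjusted p = 0.303 from limma), between -0.48 and -0.34 with each sample left out in turn. An exact two-sided permutation test of the 6 values gave p = 0.1, which is the smallest that 3 samples against 3 allow.

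Across the transcriptome no gene passed the test used here, limma on FPKM. This differs from the study, which used DESeq2 on counts and reports genes significantly lower and higher in the knockout tumors. Adjusted p from limma was under 0.05 for 0 of 16743 genes (0%) and nowhere below 0.269. voom in limma also gave 0 genes, and limma without a variance trend gave 1. Genes are therefore described below as higher or lower by their values. Before adjustment, p was under 0.05 for 2421 genes (14.5%), 1417 in the higher direction (8.46%) and 1004 in the lower (6.0%). With each sample left out in turn, 846 to 1629 genes were higher and 553 to 1126 lower at this threshold. Separate groups, with no overlap between samples, were seen for 3693 genes (22.1%), with the knockout samples above for 1912 (11.4%) and below for 1781 (10.6%). The balance of directions depended on scaling. At the same FPKM total, groups did not overlap for 961 genes above and 2929 below. Statements on overlap, here and below, refer to the deposited FPKM. For single genes and lists, overlap after rescaling is not reported here. Rescaled to the same FPKM total, 731 genes in the higher and 1785 in the lower direction had p under 0.05 before adjustment, because this scaling moved the median log2 difference of all tested genes from 0.0075 to -0.090, and list medians are therefore given relative to that median where scalings are compared.

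Cell types and states were described with 43 lists of 838 genes, of which 728 were tested and 110 were under the minimum. In each list up to 3 genes per direction were named because their groups did not overlap. For those genes, a lack of overlap restates how they were chosen. Of the listed genes, 151 in the higher and 18 in the lower direction had p under 0.05 before adjustment (backgrounds over all tested genes 8.46% and 6.0%). None of the listed genes passed adjustment. All backgrounds include noncoding genes. Over the 13320 protein-coding genes alone, 1378 were higher and 797 lower at this threshold. Groups did not overlap for 1717 of them above and 1425 below, and their median log2 difference was 0.019. The median log2 difference of a list was above that of all tested genes (0.0075) for 36 of 43 lists. The mean log2 value of a list was higher in every knockout sample than in every Apc Min sample for 14 lists, and lower in every knockout sample for 1 list. Lists and members were chosen with earlier results of these data known. These tallies therefore describe the lists and are no evidence of a broad rise. The largest median among lists with at least 10 tested genes was that of goblet cells (0.86), followed by fibroblasts (0.55), absorptive colonocytes (0.49) and endoplasmic reticulum chaperones (0.44). The 7 lists below the median of all genes were those of neutrophils and acute inflammation (-0.23), mast cells (-0.21), stomach (-0.17), the mitochondrial genome (-0.15), lymphatic endothelium (-0.14), interferon response (-0.10) and replication and mitosis (-0.01).

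**Figure D1:**
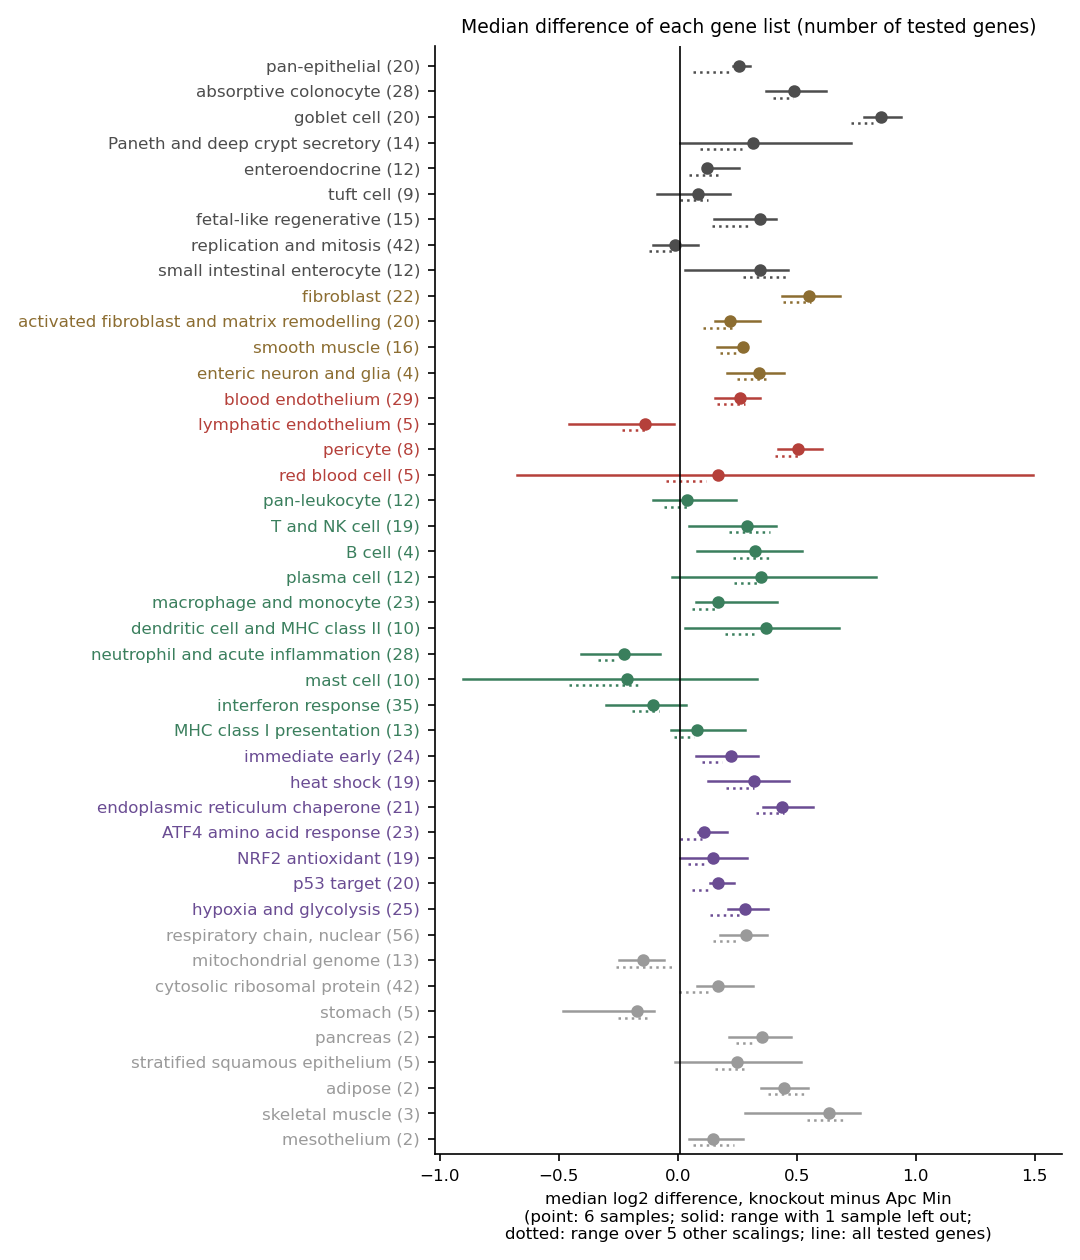
Median log2 difference (knockout minus Apc Min) of each gene list as a point, with the range over fits that leave out 1 sample as a solid line, the range over 5 other scalings as a dotted line, and the median of all tested genes (0.0075) as the vertical line; label colors mark epithelial, stromal, vascular, immune, stress and other lists, and numbers in brackets are tested genes. The goblet cell list has the highest point among lists of at least 10 genes (0.86), while the red blood cell list runs from -0.68 to 1.496 with the sample left out.

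**Figure D2:**
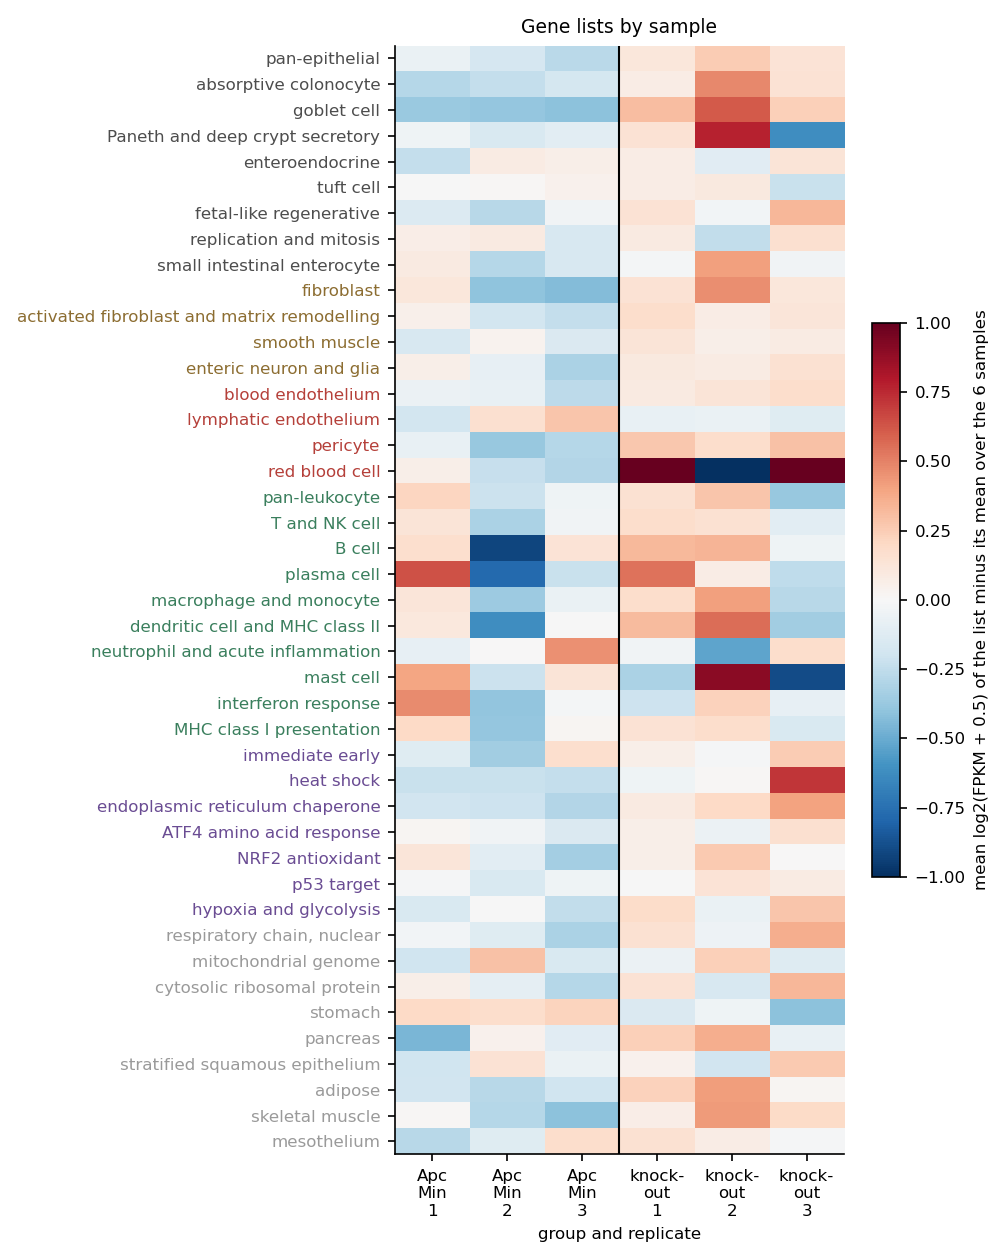
Mean log2(FPKM + 0.5) of each list (lines) in each sample (columns, group and replicate), minus the mean of that list over the 6 samples, with red for higher and blue for lower. Goblet cell, colonocyte, pericyte and endoplasmic reticulum chaperone lists are higher in all 3 knockout samples, while Paneth, mast cell and red blood cell lists split the knockout samples.

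Genes shared by all epithelial cells were modestly higher in the knockout tumors. Of 20 pan-epithelial genes, 18 were higher and 2 lower, 6 had an unadjusted p under 0.05 (all higher, background 8.46%), and 15 had all knockout samples above all Apc Min samples (background 11.4%). The median was 0.26, and relative to all tested genes it lay between 0.08 and 0.25 over 5 other scalings. Their summed level was 6272, 6334 and 5673 FPKM in the Apc Min samples and 7392, 7306 and 7717 FPKM in the knockout samples, with Krt8 the most abundant gene and none at 0. Each knockout sample was above each Apc Min sample in this sum. In bulk tissue more cells of a type and more RNA per cell cannot be told apart, here and for every list below.

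Among these genes, Epcam, a surface adhesion protein of epithelial cells, had 809.8, 807 and 696 FPKM in the Apc Min samples and 856, 816 and 896 FPKM in the knockout samples. On the deposited scale its groups lay close together without overlapping (log2 difference 0.15, 0.08 without Apc Min replicate 3, 0.05 without replicate 3 of both groups and 0.03 at the lowest over the other scalings). Cdx1, a transcription factor of intestinal identity, had 53.5, 69.2 and 56.4 FPKM in the Apc Min samples and 88.2, 97.3 and 86.0 FPKM in the knockout samples. The lowest knockout value of Cdx1 was well above the highest Apc Min value, with a log2 difference of 0.60 (standard error 0.120). Tspan8, a membrane tetraspanin, and Spint2, an inhibitor of membrane serine proteases, had log2 differences of 0.66 and 0.47 (Spint2 0.26 at the lowest over the other scalings), also without overlap.

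The goblet cell program had the largest median of the lists with at least 10 tested genes. Of 20 goblet genes, 19 were higher and 1 lower, 16 were higher with an unadjusted p under 0.05 (background 8.46%), and the same number had groups without overlap with the knockout above (background 11.4%). The summed level was 1627, 1674 and 1706 FPKM in the Apc Min samples and 3049.6, 3600.3 and 3199 FPKM in the knockout samples, with Spink4 the most abundant gene. The 3 Apc Min samples were nearly level with each other, and knockout replicate 2 was the highest sample. With each sample left out in turn the median of 0.86 ran from 0.78 to 0.94, and relative to all tested genes from 0.74 to 0.86 over the other scalings. The pan-epithelial list was higher in the same samples, and its part in the goblet result was not tested.

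Muc2 (ENSMUSG00000025515; chromosome 7, 141690340 to 141754693, plus strand) encodes the gel-forming mucin of the colonic mucus layer. It had 151, 123 and 114 FPKM in the Apc Min samples and 259, 419 and 295 FPKM in the knockout samples. Every knockout sample was above every Apc Min sample, and knockout replicate 2 was highest (log2 difference 1.31, standard error 0.206, adjusted p = 0.269 from limma). By staining of protein, the study reports more MUC2-positive cells in the knockout colon tumors. Spink4, a small secreted protein of goblet cells, had 499, 601 and 637 FPKM in the Apc Min samples and 1201, 1176 and 1073 FPKM in the knockout samples. Its knockout samples were close to each other and far above the Apc Min samples (log2 difference 0.995, standard error 0.165).

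Zg16, a mucus lectin that binds Gram-positive bacteria, had 155, 180.2 and 178 FPKM in the Apc Min samples and 295, 326 and 403 FPKM in the knockout samples. Agr2, a disulfide isomerase needed to fold mucins in the endoplasmic reticulum, had 109, 98.8 and 111 FPKM in the Apc Min samples and 205, 273 and 182 FPKM in the knockout samples. Neither gene overlapped between groups, and the log2 differences were 0.99 and 1.03. Tpsg1, a tryptase-family gene placed in the goblet list, had 5.03, 4.32 and 3.90 FPKM in the Apc Min samples and 11.2, 11.0 and 8.402 FPKM in the knockout samples, again without overlap (log2 difference 1.12), but it shares exon bases with Cacna1h (mean 7.69 FPKM).

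**Figure D3:**
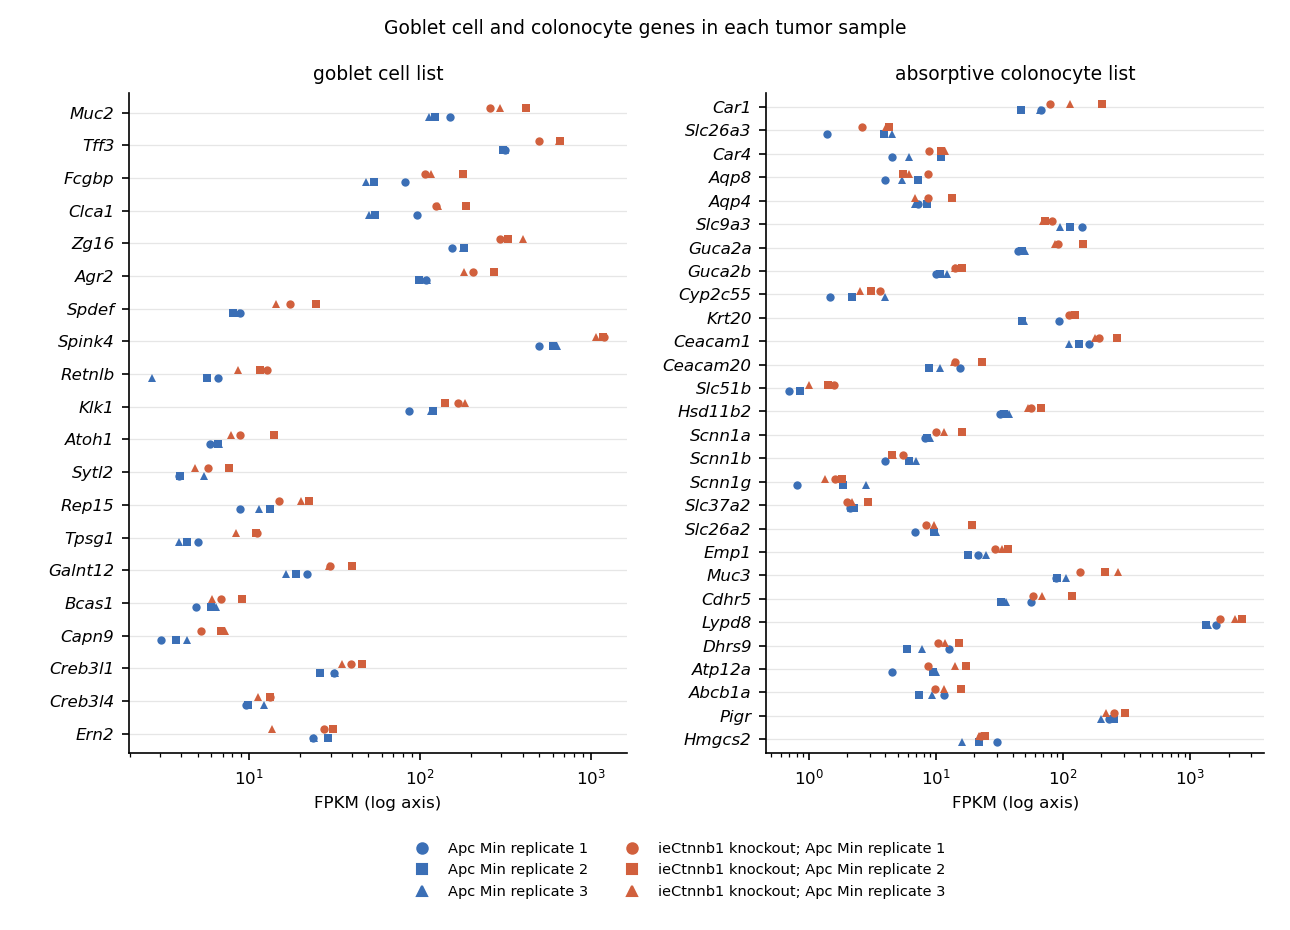
FPKM (log axis) of each tested goblet cell gene and absorptive colonocyte gene in every sample, blue for Apc Min and orange for knockout, with the symbol giving the replicate. Muc2 and Spink4 lie apart between groups (Spink4 at most 637 FPKM in Apc Min and at least 1073 FPKM in knockout samples), while Slc9a3 lies the other way.

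Absorptive colonocyte genes were also mostly higher. Of 30 genes, 28 were tested, 25 were higher and 3 lower, and 12 were higher and 1 lower with an unadjusted p under 0.05 (backgrounds 8.46% and 6.0%). Groups did not overlap for the same numbers of genes, 12 above and 1 below (backgrounds 11.4% and 10.6%). The list mean was 4.08, 4.12 and 4.19 in the Apc Min samples and 4.43, 4.84 and 4.50 in the knockout samples on the log2 scale, with knockout replicate 2 the highest. The median was 0.49, with 0.37 without knockout replicate 2 as its lowest value.

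Guca2a encodes guanylin, a peptide that drives chloride and bicarbonate secretion. It had 43.8, 47.1 and 50.5 FPKM in the Apc Min samples and 91.0, 143 and 86.3 FPKM in the knockout samples, with no overlap and knockout replicate 2 highest (log2 difference 1.13). Hsd11b2, which protects the mineralocorticoid receptor of colonocytes from glucocorticoids, had 31.9, 34.2 and 37.6 FPKM in the Apc Min samples and 56.1, 66.7 and 52.8 FPKM in the knockout samples, with all knockout samples above (log2 difference 0.75, standard error 0.116). Car1, a cytosolic carbonic anhydrase, had 67.4, 46.7 and 65.9 FPKM in the Apc Min samples and 78.3, 201 and 114 FPKM in the knockout samples. Knockout replicate 2 was far above the other samples, and the log2 difference of 1.03 was 0.67 without knockout replicate 2. Muc3, a membrane mucin of the brush border, had a log2 difference of 1.09, and Lypd8, given above, 0.59. Against the list, Slc9a3, the apical sodium-proton exchanger, had 142, 114 and 94.3 FPKM in the Apc Min samples and 81.2, 72.4 and 69.8 FPKM in the knockout samples. All its knockout samples were below its Apc Min samples (log2 difference -0.63, standard error 0.159).

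In the other secretory lineages the list means of the groups overlapped. The Paneth and deep crypt secretory list (14 genes, 12 higher and 2 lower) had means of 6.01, 5.90 and 5.95 in the Apc Min samples and 6.195, 6.82 and 5.44 in the knockout samples, so that knockout replicate 2 was highest and knockout replicate 3 lowest of all 6. Its median of 0.32 became 0.01 without knockout replicate 2, 0.73 without knockout replicate 3, 0.92 without replicate 3 of both groups and 0.11 relative to all tested genes at the lowest over the other scalings. Lyz1, the lysozyme of Paneth cells, had 702, 971 and 1095 FPKM in the Apc Min samples and 1456, 1665 and 677 FPKM in the knockout samples, overlapping groups. Nupr1, a stress-induced chromatin protein, was the 1 gene of this list higher with an unadjusted p under 0.05 (log2 difference 0.57, 0.33 without replicate 3 of both groups). Another 1 was lower at that threshold, with overlapping groups. Log2 differences over the list ran from -1.98 to 0.85. Both counts are near their backgrounds of 8.46% and 6.0%.

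For enteroendocrine cells 12 of 19 genes were tested, 7 higher and 5 lower, with a median of 0.12 (0.20 without Apc Min replicate 1, 0.26 without Apc Min replicate 2, 0.20 without knockout replicate 3, 0.02 over all its genes above 0 FPKM, 0.24 at a minimum of 1 FPKM, 0.20 without replicate 3 of both groups and 0.18 relative to all tested genes at the highest over the other scalings). Of them 2 were higher with an unadjusted p under 0.05 (background 8.46%), and 0 had groups without overlap (background 22.1%). Chga, a granule protein, had 3.92, 4.88 and 3.57 FPKM in the Apc Min samples and 5.14, 5.43 and 4.86 FPKM in the knockout samples, and the hormone Pyy had 35.3, 147 and 45.8 FPKM in the Apc Min samples and 53.8, 21.1 and 90.7 FPKM in the knockout samples; both overlapped, Pyy over a wide range within each group. Tuft cell genes (9 of 16 tested, 5 higher and 4 lower) had a median of 0.08, which was 0.01 without Apc Min replicate 1, -0.05 without knockout replicate 1, -0.09 without knockout replicate 2, 0.22 without knockout replicate 3, -0.33 at a minimum of 1 FPKM, 0.23 without replicate 3 of both groups and 0.14 relative to all tested genes at the highest over the other scalings. Their most abundant gene, Avil, had 62.7, 59.5 and 48.0 FPKM in the Apc Min samples and 52.0, 32.7 and 47.5 FPKM in the knockout samples, with overlap, and shares exon bases with Tsfm (mean 9.75 FPKM).

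The fetal-like regenerative list, genes of repairing epithelium that many adenomas also express, was higher in the knockout tumors. Of 15 genes, 13 were higher and 2 lower, 4 had an unadjusted p under 0.05 (background 8.46%) and 6 had groups without overlap (background 11.4%), all higher. Its mean on the log2 scale was 5.92, 5.78 and 6.02 in the Apc Min samples and 6.205, 6.03 and 6.39 in the knockout samples, a narrow gap between knockout replicate 2 and Apc Min replicate 3. The median of 0.34 became 0.15 without knockout replicate 3, 0.15 without replicate 3 of both groups and 0.16 relative to all tested genes at the lowest over the other scalings. Ly6a, known as Sca-1, had 180.0, 178 and 144 FPKM in the Apc Min samples and 237, 278 and 277 FPKM in the knockout samples, with no overlap (log2 difference 0.66). Ctgf, a matricellular target of YAP that fibroblasts also make, had 22.6, 26.2 and 19.7 FPKM in the Apc Min samples and 43.8, 45.4 and 32.4 FPKM in the knockout samples (log2 difference 0.81, no overlap). Anxa2 and S100a6, which form calcium-dependent membrane complexes, had log2 differences of 0.35 (0.22 without replicate 3 of both groups and 0.15 at the lowest over the other scalings) and 0.44 (0.26 without knockout replicate 3 and 0.24 without replicate 3 of both groups).

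Proliferation genes did not separate the groups. By staining of protein, an unlike measure from bulk RNA, the study reports fewer Ki67-positive cells in the knockout colon tumors. Of 42 replication and mitosis genes, 20 were higher and 22 lower, 0 had an unadjusted p under 0.05 in either direction (background 14.5%), and 0 had groups without overlap (background 22.1%). Means of the list were 3.72, 3.74 and 3.49 in the Apc Min samples and 3.75, 3.41 and 3.81 in the knockout samples, with knockout replicate 2 lowest. Mki67 had 25.1, 27.2 and 23.3 FPKM in the Apc Min samples and 25.7, 20.7 and 25.4 FPKM in the knockout samples. Pcna, the replication clamp, had 67.6, 67.5 and 53.7 FPKM in the Apc Min samples and 73.0, 60.8 and 72.6 FPKM in the knockout samples. Both overlapped, and their log2 differences of -0.08 and 0.13 changed sign with the scaling or the samples kept. For Mki67 the difference was -0.02 without Apc Min replicate 2, -0.13 without Apc Min replicate 3, -0.13 without knockout replicate 1, 0.02 without knockout replicate 2, -0.12 without knockout replicate 3, -0.18 without replicate 3 of both groups and -0.19 and 0.01 at the extremes over the other scalings. For Pcna it was 0.02 without Apc Min replicate 3, 0.09 without knockout replicate 1, 0.22 without knockout replicate 2, -0.02 without replicate 3 of both groups and -0.01 and 0.09 at the extremes over the other scalings. The median of -0.01 was 0.03 without Apc Min replicate 1, 0.03 without Apc Min replicate 2, -0.10 without Apc Min replicate 3, -0.08 without knockout replicate 1, 0.09 without knockout replicate 2, -0.05 without knockout replicate 3, -0.14 without replicate 3 of both groups and -0.05 relative to all tested genes at the lowest over the other scalings.

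Fibroblast genes were higher in the knockout tumors relative to Apc Min replicates 2 and 3, while Apc Min replicate 1 was level with knockout replicates 1 and 3. Of 22 fibroblast genes, 21 were higher and 1 lower, 13 were higher with an unadjusted p under 0.05 (background 8.46%), and 8 lay above without overlap (background 11.4%). The list mean was 4.20, 3.68 and 3.65 in the Apc Min samples and 4.23, 4.54 and 4.20 in the knockout samples, and the groups overlapped at Apc Min replicate 1 and knockout replicate 3, which were nearly equal. The median of 0.55 was 0.68 without Apc Min replicate 1 and 0.44 without Apc Min replicate 2. The summed level was 737, 489 and 471 FPKM in the Apc Min samples and 764, 959.6 and 806 FPKM in the knockout samples, with Sparc the most abundant gene and none at 0.

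Pdgfra, the growth factor receptor that marks intestinal fibroblasts, had 17.4, 16.2 and 15.4 FPKM in the Apc Min samples and 19.4, 22.5 and 20.0 FPKM in the knockout samples, close groups without overlap (log2 difference 0.32, 0.22 at the lowest over the other scalings). Sparc, a collagen-binding matrix protein, had 135, 95.7 and 83.7 FPKM in the Apc Min samples and 150.2, 161 and 175 FPKM in the knockout samples. Its knockout samples were all above its Apc Min samples, of which replicate 1 was the highest (log2 difference 0.65, standard error 0.184). Col6a1, a chain of the pericellular collagen VI, had 37.2, 29.1 and 33.2 FPKM in the Apc Min samples and 43.0, 59.6 and 46.6 FPKM in the knockout samples, also without overlap and with Apc Min replicate 1 the highest of its group (log2 difference 0.57).

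The activated fibroblast and matrix remodelling list (20 of 22 genes tested, 17 higher and 3 lower) had a median of 0.22 (0.35 without Apc Min replicate 1), and 5 genes were higher and 0 lower with an unadjusted p under 0.05 (backgrounds 8.46% and 6.0%). Groups did not overlap for 4 above and 1 below (backgrounds 11.4% and 10.6%). Its first gene, Fap, was under the minimum, at 0.142, 0.268 and 0.142 FPKM in the Apc Min samples and 0.154, 0.385 and 0.283 FPKM in the knockout samples. Wnt5a, a Wnt ligand of mesenchymal cells, had 11.9, 10.1 and 7.39 FPKM in the Apc Min samples and 12.8, 13.7 and 14.5 FPKM in the knockout samples, without overlap (log2 difference 0.49, 0.31 without Apc Min replicate 3 and 0.26 without replicate 3 of both groups). The matrix metalloproteinase Mmp2 and the collagen cross-linking enzyme Loxl2 had log2 differences of 0.45 and 0.29 (Loxl2 0.12 without replicate 3 of both groups and 0.18 at the lowest over the other scalings), also without overlap.

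Smooth muscle genes (16 of 18 tested, 12 higher and 4 lower) had a median of 0.27, and 0.16 without Apc Min replicate 1. Acta2, the actin of smooth muscle and of myofibroblasts, had 102, 88.0 and 78.2 FPKM in the Apc Min samples and 112, 107 and 115 FPKM in the knockout samples, without overlap (log2 difference 0.32, 0.21 without replicate 3 of both groups and 0.15 at the lowest over the other scalings), as had Tpm2 (0.38) and Smtn (0.30, 0.20 without Apc Min replicate 3, 0.14 without replicate 3 of both groups and 0.20 at the lowest over the other scalings). Myh11, the myosin of mature smooth muscle, had 7.04, 8.57 and 8.22 FPKM in the Apc Min samples and 9.58, 9.11 and 7.98 FPKM in the knockout samples, with overlap. Of 15 enteric neuron and glia genes 4 were tested. Their median of 0.34 was 0.21 without knockout replicate 3, -0.02 over all its genes above 0 FPKM and 0.15 without replicate 3 of both groups, and the most abundant, Ret, had 6.38, 2.73 and 2.28 FPKM in the Apc Min samples and 5.66, 7.09 and 5.04 FPKM in the knockout samples, with overlap.

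Most blood endothelium genes were higher in the knockout tumors. Of 31 blood endothelium genes 29 were tested, 21 higher and 8 lower. Of these, 10 higher and 1 lower gene had an unadjusted p under 0.05 (backgrounds 8.46% and 6.0%). Groups did not overlap for 13 genes with the knockout above and 1 below (backgrounds 11.4% and 10.6%). Averaged over the list, log2 values were 2.496, 2.48 and 2.29 in the Apc Min samples and 2.65, 2.68 and 2.73 in the knockout samples. All knockout samples were above, and Apc Min replicate 3 was the lowest. The median of 0.26 became 0.16 without Apc Min replicate 3 and lay between 0.26 and 0.29 over the other scalings relative to all tested genes.

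Esm1 (ENSMUSG00000042379; chromosome 13, 113209659 to 113218098, plus strand), a proteoglycan secreted by tip cells, had 2.15, 2.75 and 3.76 FPKM in the Apc Min samples and 7.41, 9.42 and 9.33 FPKM in the knockout samples. The lowest knockout sample was far above the highest Apc Min sample (log2 difference 1.46, standard error 0.195, adjusted p = 0.269 from limma). Apln, the ligand apelin of sprouting vessels, had 4.001, 2.502 and 3.04 FPKM in the Apc Min samples and 6.63, 12.1 and 7.94 FPKM in the knockout samples, with no overlap and knockout replicate 2 highest (log2 difference 1.33). Pecam1, the adhesion molecule of all endothelium, had 8.93, 7.15 and 6.93 FPKM in the Apc Min samples and 10.3, 10.8 and 11.1 FPKM in the knockout samples. Robo4, a receptor that stabilises vessels, had 2.17, 2.58 and 2.33 FPKM in the Apc Min samples and 3.55, 3.68 and 3.70 FPKM in the knockout samples. Both were without overlap (log2 differences 0.47 and 0.54).

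Against the direction of most genes of the list were Sox17 and Ecscr. Sox17, a transcription factor of arterial endothelium that intestinal tumor epithelium can also express, had 39.0, 42.9 and 32.3 FPKM in the Apc Min samples and 27.6, 20.4 and 23.7 FPKM in the knockout samples. All knockout samples were below (log2 difference -0.66, standard error 0.148). Ecscr, the most abundant gene of the list, had 42.5, 51.7 and 46.01 FPKM in the Apc Min samples and 38.7, 34.8 and 50.2 FPKM in the knockout samples, with overlap, and shares exon bases with 1700066B19Rik (mean 9.31 FPKM).

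The 8 pericyte genes were all higher, 5 of them with an unadjusted p under 0.05 (background 8.46%) and 4 without overlap (background 11.4%). Each of these counts includes Higd1b, which passed the minimum only through its knockout samples. At a minimum of 1 FPKM, which leaves that gene out, the list median was 0.48. The list mean was 2.15, 1.84 and 1.94 in the Apc Min samples and 2.49, 2.39 and 2.51 in the knockout samples, and the median of 0.50 ran from 0.42 to 0.61 with samples left out. Mcam, a pericyte and endothelial adhesion molecule, had 21.3, 14.8 and 14.9 FPKM in the Apc Min samples and 24.1, 21.8 and 28.1 FPKM in the knockout samples, with no overlap but a small gap between Apc Min replicate 1 and knockout replicate 2 (log2 difference 0.54, 0.36 without replicate 3 of both groups). Rgs5, a regulator of G protein signaling in pericytes, had 16.8, 10.6 and 14.1 FPKM in the Apc Min samples and 16.4, 22.9 and 18.2 FPKM in the knockout samples, with overlap (log2 difference 0.47, 0.29 without Apc Min replicate 2). Higd1b and Ndufa4l2 had log2 differences of 0.63 (0.95 with a pseudocount of 0.1 and 0.99 at the highest over the other scalings) and 0.94 without overlap, but Ndufa4l2 shares exon bases with Shmt2 (mean 29.4 FPKM). Higd1b had a mean of 0.497 FPKM in the Apc Min samples, under the minimum, and 1.04 FPKM in the knockout samples. It was tested only through its knockout values, so its direction is no evidence about the list. Blood endothelium, pericyte and pan-epithelial list means were above in all knockout samples, while those of the fibroblast list overlapped at Apc Min replicate 1, and the part of each in the others was not tested.

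Lymphatic endothelium was described by 5 of 7 genes, 2 higher and 3 lower. Prox1, the master transcription factor of lymphatic endothelium, which adenoma cells with active Wnt signaling express too, had 55.7, 63.4 and 87.4 FPKM in the Apc Min samples and 38.1, 46.8 and 37.7 FPKM in the knockout samples. All knockout samples were below (log2 difference -0.73, standard error 0.181). The list median of -0.14 was -0.46 without Apc Min replicate 1, -0.07 without Apc Min replicate 2, -0.02 without Apc Min replicate 3 and 0.03 without replicate 3 of both groups.

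Red blood cell genes (5 of 6 tested) separated the knockout samples from each other. Their summed level was 328, 346 and 246 FPKM in the Apc Min samples and 680.3, 52.9 and 1115 FPKM in the knockout samples, with the largest share from the β-globin gene Hbb-bs (164, 186 and 134 and 326, 30.4 and 580.5 FPKM). Knockout replicates 1 and 3 were above all Apc Min samples and knockout replicate 2 below them all. The median of 0.17, which took both signs over the other scalings, became 0.27 without Apc Min replicate 2, 0.04 without Apc Min replicate 3, -0.26 without knockout replicate 1, 1.496 without knockout replicate 2, -0.68 without knockout replicate 3, -0.80 without replicate 3 of both groups and -0.04 relative to all tested genes at the lowest over the other scalings.

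**Figure D4:**
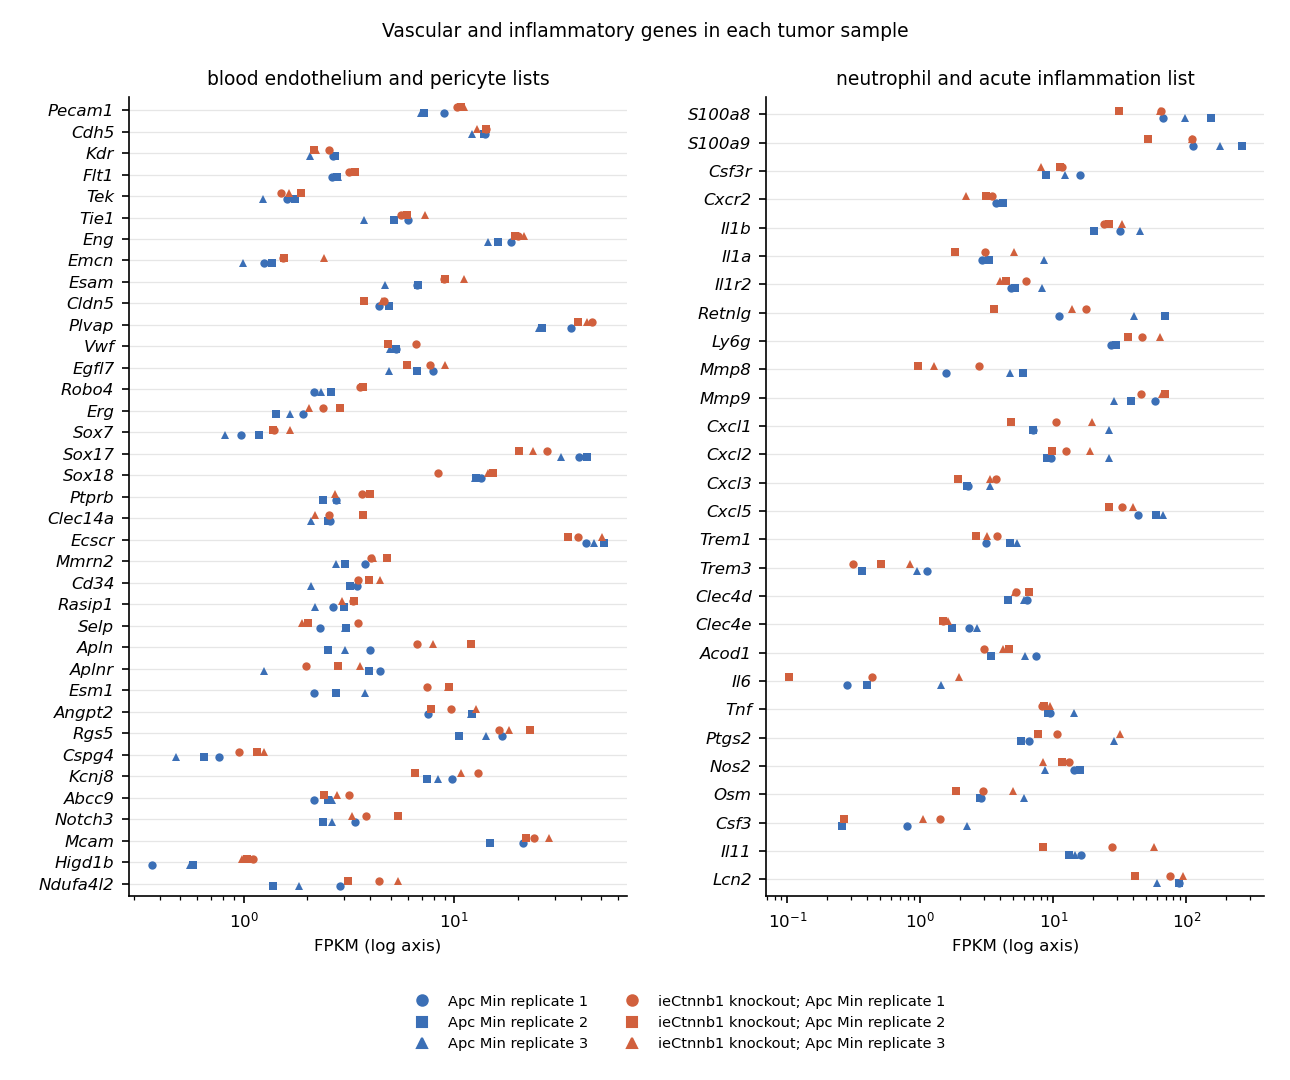
FPKM (log axis) of each tested blood endothelium and pericyte gene and of each neutrophil and acute inflammation gene in every sample, blue for Apc Min and orange for knockout, with the symbol giving the replicate. Esm1 and Apln lie higher and Sox17 lower in the knockout samples, and S100a8, S100a9 and Cxcl5 lie lower while Ly6g lies higher.

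Leukocytes as a whole did not separate the groups. Of 12 pan-leukocyte genes, 8 were higher and 4 lower and 0 had an unadjusted p under 0.05 (background 14.5%) or groups without overlap (background 22.1%), with list means of 3.10, 2.67 and 2.84 in the Apc Min samples and 3.04, 3.17 and 2.51 in the knockout samples. Knockout replicate 3 was the lowest and knockout replicate 2 the highest sample. The median of 0.04, which was -0.06 at the lowest over the other scalings, was 0.16 without Apc Min replicate 1, -0.07 without Apc Min replicate 2, -0.01 without Apc Min replicate 3, -0.03 without knockout replicate 1, -0.10 without knockout replicate 2, 0.24 without knockout replicate 3, 0.16 without replicate 3 of both groups and 0.06 relative to all tested genes at the highest over the other scalings. Ptprc, which encodes CD45, had 2.81, 2.02 and 2.29 FPKM in the Apc Min samples and 2.42, 3.05 and 1.30 FPKM in the knockout samples, with overlap.

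In the neutrophil and acute inflammation list more genes were lower than higher, while the list means of the groups overlapped. Of 28 genes, 20 were lower and 8 higher, 5 were lower (background 6.0%) and 1 higher (background 8.46%) at an unadjusted p under 0.05. The same numbers had groups without overlap (backgrounds 10.6% below and 11.4% above). The list mean was 3.17, 3.25 and 3.71 in the Apc Min samples and 3.21, 2.72 and 3.43 in the knockout samples, with Apc Min replicate 3 highest and knockout replicate 2 lowest. The median of -0.23 was -0.41 without Apc Min replicate 2, -0.08 without Apc Min replicate 3 and -0.37 without knockout replicate 3.

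S100a8 and S100a9 encode the subunits of calprotectin, a neutrophil protein. S100a8 had 66.8, 153 and 98.2 FPKM in the Apc Min samples and 64.7, 31.2 and 63.2 FPKM in the knockout samples. S100a9 had 112, 259.9 and 180.2 FPKM in the Apc Min samples and 110.0, 51.8 and 111 FPKM in the knockout samples. In both, Apc Min replicate 1 was close to knockout replicates 1 and 3, Apc Min replicate 2 was highest and knockout replicate 2 lowest, and the groups only just did not overlap (log2 differences -0.98 and -1.013, and -0.64 and -0.65 without knockout replicate 2). Cxcl5, an epithelial chemokine that attracts neutrophils, had 43.4, 59.1 and 67.1 FPKM in the Apc Min samples and 32.9, 26.4 and 39.4 FPKM in the knockout samples, also without overlap (log2 difference -0.77, standard error 0.204). Ly6g, a neutrophil surface marker, went the other way, with 27.3, 29.7 and 28.6 FPKM in the Apc Min samples and 46.1, 36.5 and 63.4 FPKM in the knockout samples and all knockout samples above (log2 difference 0.73).

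Macrophage and monocyte genes (23 of 25 tested, 19 higher and 4 lower) had a median of 0.17, which became 0.26 without Apc Min replicate 1, 0.08 without Apc Min replicate 2, 0.08 without knockout replicate 2, 0.42 without knockout replicate 3 and 0.47 without replicate 3 of both groups. Csf1r, the growth factor receptor of macrophages, had 18.0, 14.1 and 17.2 FPKM in the Apc Min samples and 17.5, 23.7 and 12.5 FPKM in the knockout samples, with overlap, and shares exon bases with Hmgxb3 (mean 10.04 FPKM). C1qa, a complement subunit made by tissue macrophages, had 74.3, 45.1 and 53.3 FPKM in the Apc Min samples and 86.8, 112 and 82.9 FPKM in the knockout samples, without overlap (log2 difference 0.72). It was the 1 gene of the list above without overlap, a smaller share than the background of 11.4%. In the list 3 genes were higher with an unadjusted p under 0.05 (background 8.46%). Apoe, the most abundant gene of the list, had 368, 251 and 305 FPKM in the Apc Min samples and 486, 563 and 362 FPKM in the knockout samples, overlapping at knockout replicate 3.

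All 10 tested genes of 14 in the dendritic cell and MHC class II list were higher, 1 of them with an unadjusted p under 0.05, which is near the background of 8.46%. That gene was Batf3, a transcription factor of cross-presenting dendritic cells (1.08, 1.25 and 1.59 FPKM in the Apc Min samples and 2.57, 2.34 and 1.69 FPKM in the knockout samples). H2-Ab1 had 57.9, 29.7 and 50.7 FPKM in the Apc Min samples and 71.7, 79.5 and 36.6 FPKM in the knockout samples. Cd74, the invariant chain, had 177, 89.8 and 207 FPKM in the Apc Min samples and 212, 274 and 128 FPKM in the knockout samples. Both overlapped, with Apc Min replicate 2 lowest and knockout replicate 2 highest. The list median of 0.37 moved to 0.03 without Apc Min replicate 2, 0.13 without knockout replicate 2, 0.68 without knockout replicate 3, 0.84 without replicate 3 of both groups and 0.21 relative to all tested genes at the lowest over the other scalings. MHC class I presentation (13 genes, 10 higher and 3 lower) had a median of 0.08, which was -0.02 at the lowest over the other scalings, and 0.28 without Apc Min replicate 1, -0.03 without Apc Min replicate 2, 0.15 without Apc Min replicate 3, 0.004 without knockout replicate 1, 0.23 without knockout replicate 3 and 0.22 without replicate 3 of both groups. Its most abundant gene, B2m, had 283, 174 and 331 FPKM in the Apc Min samples and 267, 279 and 198 FPKM in the knockout samples, with overlap.

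T and NK cell genes ranged from 11 under the minimum to a most abundant gene with a mean of 7.70 FPKM. In the T and NK cell list 19 of 30 genes were tested, 11 higher and 8 lower, with a median of 0.29, and 0.05 without Apc Min replicate 2, 0.16 without knockout replicate 1, 0.16 without knockout replicate 2 and 0.12 over all its genes above 0 FPKM. Cd3e was under the minimum, at 0.197, 0.267 and 0.279 FPKM in the Apc Min samples and 0.609, 0.535 and 0.141 FPKM in the knockout samples. Trbc2, a T cell receptor constant gene, had 5.80, 4.12 and 2.80 FPKM in the Apc Min samples and 6.65, 6.76 and 8.43 FPKM in the knockout samples. Gzma, a granzyme of killer cells, had 0.675, 1.39 and 1.196 FPKM in the Apc Min samples and 0.432, 0.310 and 0.510 FPKM in the knockout samples. Neither overlapped, Trbc2 with the knockout above and Gzma with the knockout below (log2 differences 0.76 and -0.77). Gzma had a mean of 1.09 FPKM in the Apc Min samples and 0.417 FPKM, under the minimum, in the knockout samples. It was tested only through its Apc Min values, so its direction is no evidence about the list. The value of Trbc2 was 0.42 without replicate 3 of both groups, and that of Gzma -1.16 with a pseudocount of 0.1 and -1.32 at the lowest over the other scalings.

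Of 12 B cell genes 4 were tested, with a median of 0.32 that was 0.08 without Apc Min replicate 2, 0.52 without Apc Min replicate 3 and 0.70 without replicate 3 of both groups. Plasma cell genes (12 of 13 tested, 10 higher and 2 lower) varied widely within the Apc Min group. Igkc, the κ light chain, had 3369.8, 1006 and 1705 FPKM in the Apc Min samples and 3439, 2168 and 1949 FPKM in the knockout samples. Jchain, which joins secreted IgA, had 254, 71.5 and 113 FPKM in the Apc Min samples and 216, 167 and 121 FPKM in the knockout samples. Both overlapped, with Apc Min replicate 2 lowest, and the list median of 0.35 became 0.83 without Apc Min replicate 1, -0.02 without Apc Min replicate 2, 0.14 without knockout replicate 1 and 0.57 without knockout replicate 3.

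Mast cell genes split the knockout samples. Of 10 genes, 3 were higher and 7 lower, and the list mean was 2.55, 1.94 and 2.29 in the Apc Min samples and 1.84, 3.05 and 1.26 in the knockout samples. Knockout replicate 2 was the highest and knockout replicate 3 the lowest of all 6. Mcpt1, a mucosal mast cell protease, had 48.1, 15.7 and 16.2 FPKM in the Apc Min samples and 14.5, 58.7 and 6.198 FPKM in the knockout samples, and the median of -0.21 was 0.09 without Apc Min replicate 1, -0.33 without Apc Min replicate 3, -0.09 without knockout replicate 1, -0.90 without knockout replicate 2, 0.33 without knockout replicate 3, -0.37 with a pseudocount of 0.1, -0.13 with a pseudocount of 1, 0.10 without replicate 3 of both groups and -0.42 and -0.15 relative to all tested genes at the extremes over the other scalings. Hdc, the enzyme that makes histamine, which neutrophil precursors and other myeloid cells also express, had 3.71, 4.85 and 14.2 FPKM in the Apc Min samples and 3.24, 2.25 and 2.31 FPKM in the knockout samples, with all knockout samples below and Apc Min replicate 3 far above the rest (log2 difference -1.17, -0.63 without Apc Min replicate 3 and -0.56 without replicate 3 of both groups).

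Interferon response genes varied between samples of the same group. Of 35 genes, 13 were higher and 22 lower, and 0 had an unadjusted p under 0.05 (background 14.5%) or groups without overlap (background 22.1%). On average the list stood at 2.58, 1.72 and 2.09 in the Apc Min samples and 1.90, 2.35 and 2.03 in the knockout samples, highest in Apc Min replicate 1 and next in knockout replicate 2. Ifit1 followed that pattern, with 14.0, 2.33 and 3.10 FPKM in the Apc Min samples and 2.67, 9.67 and 5.50 FPKM in the knockout samples, and the most abundant gene, Oas1a, had 16.2, 10.2 and 10.9 FPKM in the Apc Min samples and 13.9, 23.5 and 16.0 FPKM in the knockout samples. The median of -0.10 was 0.01 without Apc Min replicate 1, -0.30 without Apc Min replicate 2, 0.03 without knockout replicate 1, -0.25 without knockout replicate 2, -0.04 without replicate 3 of both groups and -0.06 relative to all tested genes at the highest over the other scalings.

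Of the stress programs, the chaperones and quality control genes of the endoplasmic reticulum were higher throughout the list. All 21 genes of the list were higher in the knockout tumors, 16 with an unadjusted p under 0.05 (background 8.46%) and 18 with groups without overlap (background 11.4%). The list mean was 5.33, 5.31 and 5.23 in the Apc Min samples and 5.61, 5.72 and 5.93 in the knockout samples, with the Apc Min samples close together and knockout replicate 3 highest. The median of 0.44 was 0.36 without knockout replicate 3, and relative to all tested genes it ran from 0.36 to 0.45 over the other scalings. Goblet cell genes, whose cells fold large amounts of mucin, were higher in the same samples, and their part in this result was not tested.

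Hspa5, known as BiP, the Hsp70 chaperone of the endoplasmic reticulum, had 133, 133 and 118 FPKM in the Apc Min samples and 172, 185 and 251 FPKM in the knockout samples. All knockout samples were above, with replicate 3 highest (log2 difference 0.65, standard error 0.160, 0.43 without replicate 3 of both groups). Sdf2l1 (ENSMUSG00000022769; chromosome 16, 17130138 to 17132383, minus strand), a cofactor of BiP, had 27.5, 25.7 and 22.1 FPKM in the Apc Min samples and 46.4, 49.1 and 60.5 FPKM in the knockout samples. This was the widest gap of the list, with all 3 knockout samples above (log2 difference 1.03, standard error 0.133, adjusted p = 0.269 from limma). Calr, the calcium-binding lectin chaperone and most abundant gene of the list, had 217, 209 and 191 FPKM in the Apc Min samples and 275, 271 and 343 FPKM in the knockout samples, and the disulfide isomerases Pdia6 and Pdia4 had log2 differences of 0.63 and 0.52. None of these genes overlapped between groups.

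Heat shock genes of the cytosol rested largely on knockout replicate 3. Of 19 genes, 17 were higher and 2 lower, 7 were higher with an unadjusted p under 0.05 (background 8.46%) and 8 lay above without overlap (background 11.4%). The log2 mean of the list was 5.11, 5.11 and 5.09 in the Apc Min samples and 5.29, 5.34 and 6.05 in the knockout samples, and the median of 0.32 became 0.13 without knockout replicate 3 and 0.12 without replicate 3 of both groups. Hspa1a and Hspa1b encode the inducible Hsp70. Hspa1a had 1.31, 0.919 and 1.08 FPKM in the Apc Min samples and 2.26, 4.03 and 11.97 FPKM in the knockout samples. Hspa1b had 7.58, 5.66 and 5.51 FPKM in the Apc Min samples and 10.2, 18.4 and 42.9 FPKM in the knockout samples. In both, all knockout samples were above all Apc Min samples and knockout replicate 3 was far above the rest, while without that sample the log2 differences of 1.75 and 1.62 were 1.15 and 1.09. They were 1.14 and 1.008 without replicate 3 of both groups. Dnajb1, an Hsp40 cochaperone, had 16.3, 16.8 and 16.7 FPKM in the Apc Min samples and 20.6, 24.3 and 37.0 FPKM in the knockout samples, with the same order.

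**Figure D5:**
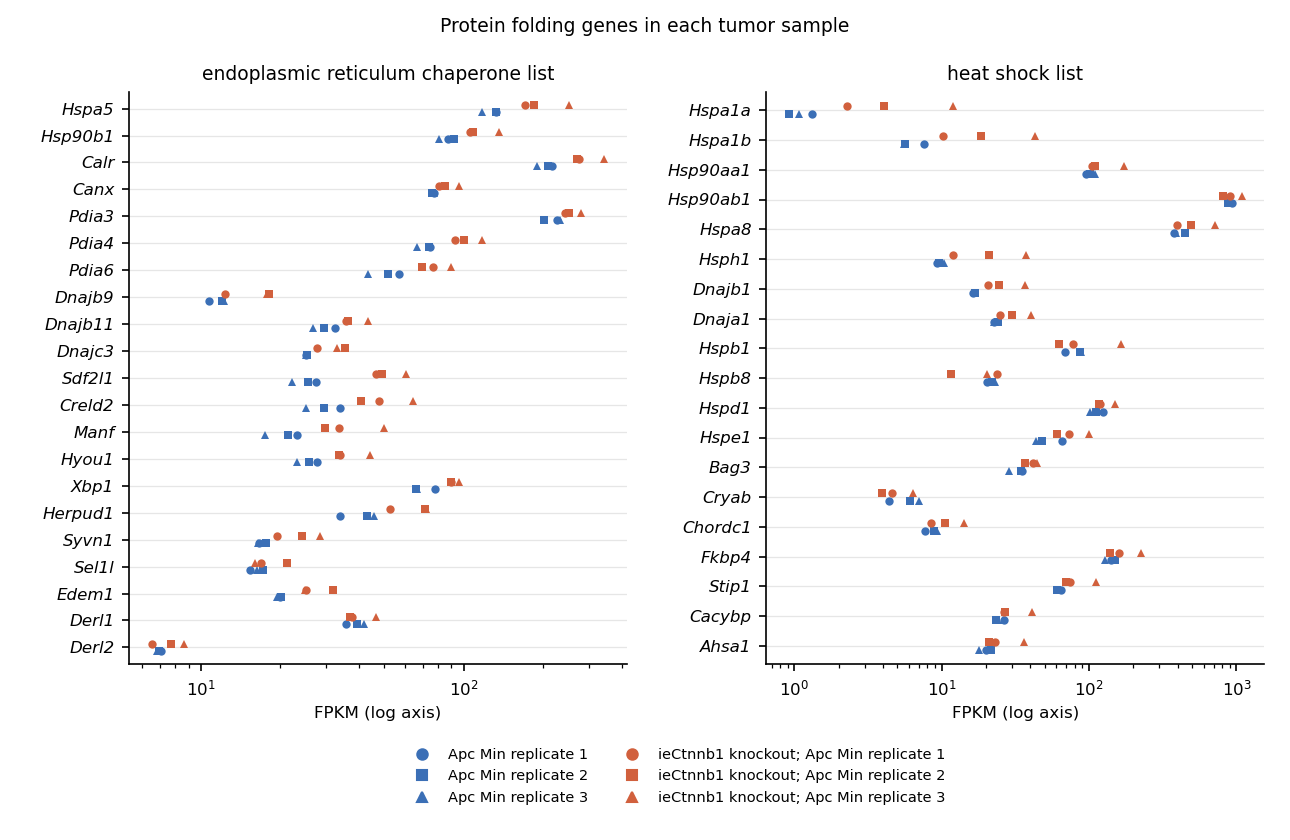
FPKM (log axis) of each endoplasmic reticulum chaperone gene and each heat shock gene in every sample, blue for Apc Min and orange for knockout, with the symbol giving the replicate. Sdf2l1 is at most 27.5 FPKM in Apc Min samples and at least 46.4 FPKM in knockout samples, while for Hspa1a and Hspa1b knockout replicate 3 (triangle) lies far from the other knockout samples.

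The ATF4 amino acid response list, another arm of the response to endoplasmic reticulum stress and to amino acid shortage, had list means that overlapped between the groups. Of 23 genes, 17 were higher and 6 lower, 3 were higher and 2 lower with an unadjusted p under 0.05 (backgrounds 8.46% and 6.0%), and the same numbers did not overlap (backgrounds 11.4% and 10.6%). The median was 0.11 (0.19 without Apc Min replicate 1, 0.21 without knockout replicate 2 and 0.04 without replicate 3 of both groups). Atf4 itself had 62.3, 71.0 and 67.7 FPKM in the Apc Min samples and 85.6, 70.2 and 90.1 FPKM in the knockout samples, overlapping at knockout replicate 2. The transcription factor Cebpb had 30.2, 28.8 and 30.2 FPKM in the Apc Min samples and 48.0, 43.8 and 49.2 FPKM in the knockout samples, tight within groups and without overlap (log2 difference 0.65, standard error 0.0805), but it shares exon bases with Tmem189 (mean 9.97 FPKM), and its partner Cebpg had a log2 difference of 0.31 (0.20 without replicate 3 of both groups and 0.20 at the lowest over the other scalings). Slc7a11, the cystine transporter, had 7.05, 9.02 and 7.49 FPKM in the Apc Min samples and 5.32, 4.91 and 4.79 FPKM in the knockout samples. Slc7a5, a transporter of large neutral amino acids, had 24.7, 21.7 and 22.1 FPKM in the Apc Min samples and 20.0, 18.4 and 16.3 FPKM in the knockout samples. Both lay lower in all knockout samples (log2 differences -0.59 and -0.32).

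In the NRF2 antioxidant list (19 genes, 15 higher and 4 lower) the median was 0.15, which became 0.29 without Apc Min replicate 1, 0.23 without Apc Min replicate 2, 0.01 without Apc Min replicate 3, 0.09 without knockout replicate 2, 0.25 without knockout replicate 3 and 0.07 without replicate 3 of both groups. Hmox1, the heme-degrading enzyme, had 40.1, 25.5 and 19.8 FPKM in the Apc Min samples and 46.2, 83.9 and 67.9 FPKM in the knockout samples, with all knockout samples above but knockout replicate 1 near Apc Min replicate 1 (log2 difference 1.22, standard error 0.305). Osgin1 and Taldo1 were higher (0.45 for Osgin1, and 0.39 for Taldo1, 0.23 without replicate 3 of both groups and 0.18 at the lowest over the other scalings) and the glutathione transferase Gstm1 lower (-0.28, -0.18 without knockout replicate 1 and -0.42 at the lowest over the other scalings), each without overlap.

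Among 20 p53 target genes, 14 were higher and 6 lower, 3 were higher with an unadjusted p under 0.05 (background 8.46%), and 5 lay above without overlap (background 11.4%). The median of 0.17 was 0.10 without replicate 3 of both groups and 0.10 relative to all tested genes at the lowest over the other scalings. Cdkn1a, the cell cycle inhibitor p21, had 47.6, 46.1 and 57.0 FPKM in the Apc Min samples and 59.3, 74.2 and 76.6 FPKM in the knockout samples. Phlda3, an inhibitor of AKT signaling, had 36.8, 38.2 and 34.8 FPKM in the Apc Min samples and 45.7, 49.9 and 57.9 FPKM in the knockout samples. Neither overlapped (log2 differences 0.47 and 0.47), and the death receptor gene Tnfrsf10b had a log2 difference of 0.27 (0.17 at the lowest over the other scalings). For the whole list the mean was 3.80, 3.65 and 3.76 in the Apc Min samples and 3.80, 3.94 and 3.89 in the knockout samples, with Apc Min replicate 1 and knockout replicate 1 nearly level.

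Hypoxia and glycolysis genes (25 genes, 21 higher and 4 lower) included 8 that were higher with an unadjusted p under 0.05 (background 8.46%). Groups did not overlap for 7 above and 1 below (backgrounds 11.4% and 10.6%). The list had a median of 0.28 (0.15 without replicate 3 of both groups and 0.15 relative to all tested genes at the lowest over the other scalings) and list means of 4.87, 5.02 and 4.77 in the Apc Min samples and 5.20, 4.95 and 5.29 in the knockout samples. Knockout replicate 2 was within the Apc Min range and the other knockout samples were above it. P4ha1, a prolyl hydroxylase needed for collagen, had 7.96, 8.68 and 7.31 FPKM in the Apc Min samples and 12.6, 13.6 and 18.8 FPKM in the knockout samples, without overlap (log2 difference 0.85, standard error 0.160), and its relative P4ha2 differed by 0.61 (0.40 without knockout replicate 3 and 0.32 without replicate 3 of both groups). Car9, a membrane carbonic anhydrase induced by low oxygen, had 20.6, 16.3 and 12.2 FPKM in the Apc Min samples and 25.7, 26.8 and 29.3 FPKM in the knockout samples, also without overlap (log2 difference 0.75). Vegfa had 30.98, 34.9 and 28.2 FPKM in the Apc Min samples and 45.3, 30.5 and 45.000 FPKM in the knockout samples and Ldha 257, 283 and 219 FPKM in the Apc Min samples and 336, 266 and 382 FPKM in the knockout samples, both with overlap at knockout replicate 2.

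Immediate early genes, which also respond to the handling of tissue, had 19 of 24 higher and 5 lower. The median was 0.22, with 0.14 without Apc Min replicate 1, 0.08 without Apc Min replicate 2, 0.34 without Apc Min replicate 3, 0.10 without knockout replicate 3 and 0.12 relative to all tested genes at the lowest over the other scalings, and 3 genes were higher with an unadjusted p under 0.05 (background 8.46%) and 5 lay above without overlap (background 11.4%). Jund had 62.0, 65.1 and 62.1 FPKM in the Apc Min samples and 84.6, 82.5 and 95.9 FPKM in the knockout samples, without overlap (log2 difference 0.47, standard error 0.0905, 0.31 at the lowest over the other scalings). The epithelial differentiation factor Klf4 and its relative Klf6 had log2 differences of 0.49 (0.31 without knockout replicate 2) and 0.39 (0.24 without Apc Min replicate 2) without overlap. Fos had 33.0, 20.0 and 39.0 FPKM in the Apc Min samples and 38.2, 42.9 and 39.9 FPKM in the knockout samples, with overlap.

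In the lists that follow metabolism and library composition the means overlapped between the groups. Of 56 nuclear respiratory chain genes 53 were higher and 3 lower, and 16 were higher with an unadjusted p under 0.05 (background 8.46%) and 14 lay above without overlap (background 11.4%). They had list means of 5.64, 5.54 and 5.35 in the Apc Min samples and 5.81, 5.61 and 6.03 in the knockout samples, highest in knockout replicate 3 and overlapping at knockout replicate 2. The median of 0.29 was 0.18 without knockout replicate 3, 0.11 without replicate 3 of both groups and 0.16 relative to all tested genes at the lowest over the other scalings. Uqcrb, Ndufb10 and Ndufa5 had log2 differences of 0.55, 0.51 and 0.51 without overlap (0.35, 0.33 and 0.29 without replicate 3 of both groups). Cox8a had 429, 350.2 and 280.4 FPKM in the Apc Min samples and 500.4, 404 and 613 FPKM in the knockout samples, with overlap. Cytosolic ribosomal protein genes (42 genes, 37 higher and 5 lower) were also highest in knockout replicate 3 and had a median of 0.17 (0.08 without Apc Min replicate 3, 0.32 without knockout replicate 2, 0.09 without knockout replicate 3, -0.02 without replicate 3 of both groups and 0.02 relative to all tested genes at the lowest over the other scalings). In that list 1 gene was higher with an unadjusted p under 0.05 and 1 gene lay above without overlap, smaller shares than over all tested genes (8.46% and 11.4%). The gene without overlap was Rpl30 (58.1, 34.2 and 38.3 FPKM in the Apc Min samples and 65.4, 69.0 and 116 FPKM in the knockout samples).

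Of the 13 protein genes of the mitochondrial genome 5 were higher and 8 lower, with a median of -0.15 (-0.25 without Apc Min replicate 1, -0.06 without Apc Min replicate 2, -0.10 without replicate 3 of both groups and -0.23 and -0.01 relative to all tested genes at the extremes over the other scalings) and overlapping list means. mt-Co1, a subunit of cytochrome c oxidase and the most abundant, had 4912, 7044 and 6022 FPKM in the Apc Min samples and 4274, 5067 and 4196 FPKM in the knockout samples, with overlap. mt-Atp8 was higher (log2 difference 1.12, 0.73 without replicate 3 of both groups), but it shares exon bases with mt-Atp6 (mean 51.4 FPKM).

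Lists of neighbouring tissues were used to look for admixture. In the stomach list 5 of 13 genes were tested, 1 higher and 4 lower. Of these, 2 were lower with an unadjusted p under 0.05 (background 6.0%) and 1 lay below without overlap (background 10.6%). It was the list with all knockout means below all Apc Min means (2.85, 2.83 and 2.88 in the Apc Min samples and 2.51, 2.61 and 2.24 in the knockout samples). Atp4a, a subunit of the gastric proton pump, had 3.93, 3.93 and 3.61 FPKM in the Apc Min samples and 2.30, 2.39 and 2.05 FPKM in the knockout samples, low and without overlap (log2 difference -0.66), and Ctse, the most abundant gene of the list, had 29.3, 23.8 and 23.9 FPKM in the Apc Min samples and 25.6, 33.5 and 27.9 FPKM in the knockout samples, with overlap. Gkn1, a stomach surface cell gene, was under the minimum in both groups. The median of -0.17 was -0.44 without Apc Min replicate 1, -0.31 without Apc Min replicate 2, -0.48 without Apc Min replicate 3, -0.32 without knockout replicate 1, -0.10 without knockout replicate 3, -0.08 over all its genes above 0 FPKM, -0.38 at a minimum of 1 FPKM and -0.11 relative to all tested genes at the highest over the other scalings.

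Small intestinal enterocyte genes (12 of 22 tested, 7 higher and 5 lower) had a median of 0.35, which was 0.11 without Apc Min replicate 2, 0.03 without knockout replicate 2 and 0.17 over all its genes above 0 FPKM. Knockout replicate 2 was the sample highest in the brush border peptidase genes Mep1a (3.83, 3.18 and 3.72 FPKM in the Apc Min samples and 4.09, 8.87 and 5.91 FPKM in the knockout samples) and Mep1b. Their log2 differences of 0.68 and 0.84 were 0.42 and 0.54 without that sample. Slc5a1, a sodium-glucose transporter and the most abundant gene of that list, had 12.1, 16.9 and 15.1 FPKM in the Apc Min samples and 13.3, 14.9 and 12.3 FPKM in the knockout samples, with overlap. The remaining lists held few tested genes, and their medians were at most 0.09 when genes under the minimum were included. For pancreas (2 of 12 tested) the median of 0.35 was 0.21 without Apc Min replicate 1 and 0.05 over all its genes above 0 FPKM. Stratified squamous epithelium (5 of 10) had 0.25, which was 0.52 without Apc Min replicate 2, -0.01 without Apc Min replicate 3, 0.09 without knockout replicate 3, -0.05 over all its genes above 0 FPKM and -0.05 without replicate 3 of both groups. Adipose tissue (2 of 8) had 0.45, against 0.09 over all its genes above 0 FPKM and 0.70 at a minimum of 1 FPKM. Skeletal muscle (3 of 9) had 0.64, against 0.28 without Apc Min replicate 2 and 0.02 over all its genes above 0 FPKM. The mesothelium list (2 of 5) had 0.15, against 0.05 without Apc Min replicate 1, 0.27 without Apc Min replicate 3, 0.24 with a pseudocount of 0.1, 0.09 with a pseudocount of 1, -0.05 over all its genes above 0 FPKM, -0.09 at a minimum of 1 FPKM, 0.31 without replicate 3 of both groups and 0.07 and 0.27 relative to all tested genes at the extremes over the other scalings. Fabp4 of fat cells and endothelium had 1.16, 1.58 and 1.74 FPKM in the Apc Min samples and 2.74, 2.37 and 3.06 FPKM in the knockout samples, without overlap. Krt4, a keratin of stratified epithelium, was lower in all knockout samples (log2 difference -0.81, -0.47 without replicate 3 of both groups), Krt5 was near 0, and Acta1, the actin of skeletal muscle, had 8.49, 1.89 and 3.31 FPKM in the Apc Min samples and 5.50, 8.32 and 6.30 FPKM in the knockout samples, with overlap.

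Over all tested genes with a mean of at least 5 FPKM and groups without overlap, the 10 per direction with the smallest p were taken, and all 20 had an adjusted p of 0.269 from limma. H19 (ENSMUSG00000000031; chromosome 7, 142575529 to 142578143, minus strand), an imprinted long noncoding RNA of fetal tissues, had 3.82, 1.996 and 2.77 FPKM in the Apc Min samples and 10.4, 16.1 and 18.6 FPKM in the knockout samples. It had the largest difference of the 20, with the lowest knockout sample far above the highest Apc Min sample (log2 difference 2.21, standard error 0.271). Cebpb, Sdf2l1, Tpsg1 and Esm1, described above, were also among the 10 higher genes. Thbs4, a matricellular thrombospondin, had 17.9, 15.2 and 19.3 FPKM in the Apc Min samples and 29.2, 31.4 and 35.6 FPKM in the knockout samples. Ramp1, a coreceptor for the neuropeptide CGRP, had 6.38, 7.76 and 7.61 FPKM in the Apc Min samples and 12.3, 14.3 and 12.03 FPKM in the knockout samples. Their log2 differences were 0.86 and 0.79. Atp2c2, a calcium and manganese pump of secretory epithelia, and Fam83e had log2 differences of 0.65 and 0.59.

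The log2 differences of the 10 lower genes, also taken for groups without overlap, lay between -1.30 and -0.45. Gm26424, an snRNA gene, had 15.4, 8.74 and 7.72 FPKM in the Apc Min samples and 4.18, 3.60 and 3.70 FPKM in the knockout samples (log2 difference -1.30), and Gm16907, which shares exon bases with 2010111I01Rik (mean 17.5 FPKM), had 15.3, 18.8 and 15.6 FPKM in the Apc Min samples and 9.74, 8.93 and 5.95 FPKM in the knockout samples (log2 difference -0.99). Apc Min replicate 1 was the highest sample of Gm26424, and the groups of both genes lay apart. Bcl2l11, which encodes the pro-apoptotic protein BIM, had 12.3, 12.8 and 13.4 FPKM in the Apc Min samples and 8.96, 8.64 and 9.50 FPKM in the knockout samples, narrow groups without overlap (log2 difference -0.48, standard error 0.0838). Amot, a scaffold that binds YAP at cell junctions, had 19.1, 21.9 and 22.6 FPKM in the Apc Min samples and 14.0, 15.0 and 15.1 FPKM in the knockout samples (log2 difference -0.51), and the actin-capping protein gene Tmod2 had 7.81, 6.59 and 7.60 FPKM in the Apc Min samples and 4.36, 4.41 and 3.53 FPKM in the knockout samples (log2 difference -0.77). All knockout samples of both were below. The log2 differences of the others were -0.45 for Ugt2b34, a glucuronosyltransferase, -0.46 for Klhl24, -0.63 for Fbxo10, -0.75 for Aspa, the enzyme that cleaves N-acetylaspartate, and -0.92 for the noncoding Gm15764.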

How the data were processed

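RNA-seq values of 6 colon tumors were read from the table that the authors deposited, with FPKM for each gene and sample and replicates not pooled. The paper states alignment with Hisat2, counting with featureCounts and testing with DESeq2, while the processing notes of the submitters name cutadapt, HISAT2, Cufflinks 2.2.1, DESeq2 and mm10. Which of these accounts made the FPKM values, the annotation and the use of strand in counting are not stated. Of the genes in the table, 54409 are in GENCODE M21, of which 53499 (98.3%) match in start and end. Fragments were recovered from FPKM times length, a whole multiple of 1 step per sample for 100% of nonzero values (tolerance 0.01), and numbered 14648696 to 16156712 per sample.

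Samples were grouped by their labels, 3 Apc Min/+ and 3 with the enhancer deleted as well, with no covariate. Genes with a mean of at least 0.5 FPKM were tested on log2(FPKM + 0.5) by limma 3.58.1 (R 4.3.3), using a variance trend and Benjamini-Hochberg adjustment over all tested genes at 0.05; Ctnnb1 was also tested by exact permutation. Summaries used Python 3.11.15, numpy 2.4.6, pandas 2.3.3, scipy 1.17.1 and matplotlib 3.10.9. The procedure was tested on simulated data.

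The 43 lists draw on general knowledge of cell types and stress responses, and 3 of their symbols were matched by an older name. Members and lists were chosen with earlier results of these data known, so lists are described by counts and medians only. Named genes were Ctnnb1, the 10 per direction with the smallest p among genes of at least 5 FPKM without overlap, and in each list the gene written first, the most abundant gene, and up to 3 per direction with an unadjusted p under 0.05 without overlap; some genes of lists that are only summarised were left out, and some genes taken by the rule are not reported here. Xist, the 2 genes at the minimum, and partners in shared exons were named outside this rule.

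Alternatives were pseudocounts of 0.1 and 1, no filter or a minimum of 1 FPKM, rescaling to the same total with or without the 50 highest genes, quantile normalization, removal of a trend with gene length, no variance trend, robust moderation, voom on recovered fragments, replicate number as a block, protein-coding genes only, and leaving out each sample or replicate 3 of both groups.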

Additional observations from a re-analysis of the deposited data

How the results depend on the processing

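Under 20 alternatives, no named gene passed an adjusted p under 0.05. Rescaled to the same total, 731 genes had p under 0.05 before adjustment in the higher and 1785 in the lower direction, and groups did not overlap for 961 above and 2929 below. Without the 50 highest genes in the total these were 730, 1953, 992 and 3059. The FPKM total was larger in every knockout sample (309135 to 346851) than in every Apc Min sample (293329 to 305396). Both scalings lowered the median log2 difference of all tested genes, to -0.090 and -0.091. Quantile normalization gave 1116 higher and 1282 lower, and voom 1084 and 1522 (the cause was not tested). Without a variance trend 1 gene passed adjustment (the cause was not tested). Without replicate 3 of both groups 708 were higher and 497 lower, and 3484 above and 3252 below, with fewer samples. With each sample left out in turn the counts ran from 846 to 1629 higher, 553 to 1126 lower, 2470 to 3354 above and 2306 to 3223 below.

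With replicate number as a block, 0 genes passed adjustment, 1160 were higher and 722 lower. Deviations from the group means correlated over genes at 0.0541, -0.0898 and 0.0525 between samples with the same number. Apc Min replicates 1 and 2 correlated best with other numbers (0.127 and 0.133). With 3 samples per group these values depend on each other, so they cannot decide whether the numbers mark pairs. Replicate 3 was the female sample in both groups.

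List medians moved by less than 1 SD between replicates in 809 of 860 comparisons. Of 838 listed genes 110 were not tested at this depth, so the B cell, T cell and enteric neuron lists rest on part of their genes. Between 33 and 39 of 43 lists were above the median of all genes, a tally that depends on how the lists were chosen. Of 130 named genes, 2562 values kept their sign and 30 changed it (the cause was not tested). The kept values include mt-Co1, whose log2 difference of -0.40 was -5.4e-16 at the highest over the other scalings. That is no difference up to rounding. Rescaled to the same total, Csf1r was -0.026, and -0.027 without the top genes. Quantile normalization gave -0.013 for Pcna and -0.050 for Hbb-bs, and the length correction 0.0054 for Mki67 and 0.039 for Ptprc. Without replicate 3 of both groups the values were -0.020 for Pcna, 0.084 for Mcpt1, 0.16 for Ptprc, -0.17 for Ifit1, 0.30 for B2m and -0.80 for Hbb-bs. With samples left out in turn the ranges were -1.24 to 0.33 for Mcpt1, -0.32 to 0.17 for Ptprc, -0.32 to 0.15 for B2m, -0.051 to 0.86 for Jchain, -0.87 to 0.22 for Pyy, -0.14 to 0.31 for Csf1r, -0.32 to 0.86 for Ifit1, -0.68 to 1.44 for Hbb-bs and -0.13 to 0.023 for Mki67.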
